A study of Mus musculus with 6 samples.

Results

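The genes described here encode the kinetochore, the protein assembly that joins a chromosome to the mitotic spindle, together with the spindle checkpoint and the chromosomal passenger complex. They were taken from a list of 34 gene symbols, and all 34 were measured, among 18193 genes measured in all. A gene was represented by 1 probe set, the brightest by its mean over the 6 arrays among those annotated to that symbol alone. Expression was measured on Affymetrix mouse arrays in LKS+ cells, which lack lineage markers and carry high Kit and Sca-1, and which include blood stem cells and multipotent progenitors. The 6 arrays came from 3 wild type (WT) mice and 3 Apcmin mice, the latter of which carry the Min mutation of the tumour suppressor gene Apc. Both groups shared the sort, the RNA preparation and a linear amplification, and were untreated as far as the labels say. The labels give neither strain nor age nor the number of mutant alleles. They count sorted cells per mouse, so each array was taken as 1 mouse, although no animal is named; if the arrays were not separate mice, the p-values cover technical spread only.

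Kinetochores are built on centromeric chromatin that carries the histone variant CENP-A. A constitutive inner network binds this chromatin, and an outer network of the Knl1, Mis12 and Ndc80 complexes holds the spindle microtubules. At an unattached kinetochore the kinases Bub1 and Ttk and the RZZ complex bring in Mad1 and Mad2, which delay anaphase by inhibiting Cdc20. Many of these transcripts, though not all, peak in G2 and M phase, and the amount of those in a mixed population depends in part on the share of dividing cells. Cell cycle phase was not measured here. The APC protein, best known for marking beta-catenin for degradation, also binds microtubule plus ends and has been found at kinetochores. In RNA from a whole sort, fewer cycling cells and less RNA per cycling cell cannot be told apart.

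Promoters of genes of this kind often hold a cell cycle homology region, searched here as TTTGAA or TTTAAA, and CCAAT boxes, both known from G2 and M phase promoters. RefSeq promoters (GRCm38.p6, 250 bases before to 50 after the start, 300 in all) were found for 29 of the 34 genes. Those of Bub1 and Zwint are shown because their groups did not overlap. That of Cenpt is shown as the member with the smallest difference, and that of Bub1b, chosen after its values were seen, as the counterpart of Bub1 in the checkpoint. Zwilch has no entry. Capitals mark matches to either of those words, to CCAAT or to the E2F words TTTCCCGC and TTTGGCGC, read on both strands. Each line runs 5′ to 3′ on the strand of the gene.
Bub1: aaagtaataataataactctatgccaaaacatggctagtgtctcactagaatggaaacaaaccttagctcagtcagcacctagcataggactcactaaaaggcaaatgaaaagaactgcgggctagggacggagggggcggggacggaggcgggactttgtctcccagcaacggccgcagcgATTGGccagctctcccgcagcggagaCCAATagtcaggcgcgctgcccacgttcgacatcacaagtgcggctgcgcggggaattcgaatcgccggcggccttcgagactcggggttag
Bub1b: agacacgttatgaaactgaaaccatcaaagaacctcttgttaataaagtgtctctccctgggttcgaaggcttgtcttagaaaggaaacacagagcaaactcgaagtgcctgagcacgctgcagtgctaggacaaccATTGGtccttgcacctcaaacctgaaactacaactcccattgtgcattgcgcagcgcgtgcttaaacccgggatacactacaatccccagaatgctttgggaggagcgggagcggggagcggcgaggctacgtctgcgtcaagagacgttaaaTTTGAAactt
Zwint: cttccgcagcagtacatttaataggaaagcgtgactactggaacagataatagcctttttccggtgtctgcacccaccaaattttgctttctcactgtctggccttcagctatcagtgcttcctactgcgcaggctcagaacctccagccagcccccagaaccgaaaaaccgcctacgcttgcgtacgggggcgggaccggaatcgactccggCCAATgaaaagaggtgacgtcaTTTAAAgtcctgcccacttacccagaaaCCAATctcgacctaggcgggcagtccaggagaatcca
Cenpt: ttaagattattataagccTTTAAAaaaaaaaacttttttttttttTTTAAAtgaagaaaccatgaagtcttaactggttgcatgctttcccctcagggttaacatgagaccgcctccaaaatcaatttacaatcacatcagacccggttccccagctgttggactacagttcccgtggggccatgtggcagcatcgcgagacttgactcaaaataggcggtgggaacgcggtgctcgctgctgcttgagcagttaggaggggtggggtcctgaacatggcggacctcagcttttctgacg
These lie at chr2:127831810-127832109 (minus strand), chr2:118597961-118598260 (plus), chr10:72654596-72654895 (plus) and chr8:105851959-105852258 (minus). In Zwint a CCAAT begins 37 bases before the start and a TTTAAA 15 bases before it. Bub1 has CCAAT boxes 68 bases (reverse strand) and 42 bases before its start and neither word of the cell cycle region. Bub1b has a TTTGAA 41 bases after its start, and the matches of Cenpt lie in an A- and T-rich stretch 232 and 205 bases before its start.

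Over the 33 promoters of the 29 genes, TTTGAA was found in 42.4%, against 17.9% of 32851 promoters of all genes. TTTAAA was found in 21.2% against 13.2%, CCAAT in 69.7% against 37.4%, and an E2F word in 9.09% (only 3 of the 33) against 1.56%. Among promoters of genes averaging 6 or more in log2 intensity, the shares were 12.1%, 8.86%, 37.9% and 3.22%. TTTAAA reads the same on both strands, and it and TTTGAA cannot begin at the same base. Within 50 bases on either side of the start, TTTGAA was found in 10 of the 33 promoters (30.3%), against 4.94% of all. A match describes these letters and is not evidence of a bound factor.

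Of the markers that define the sort, Kit was among the genes measured and Sca-1 was not analysed here. All 7 measured stem and progenitor markers (Kit, Cd34, Flt3, Meis1, Hlf, Mecom and Gata2) averaged 6 or more in log2 intensity, and Kit averaged 9.79 ± 0.18 (SD, n = 3) among WT and 9.87 ± 0.18 among Apcmin arrays. Of 17 measured markers of mature lineages, 6 were that bright: the granule genes S100a8, S100a9, Camp and Ltf, the B-lineage gene Cd79b, and Pf4. The other B-lineage markers were dim, Cd79a averaging 3.57 and Ms4a1 1.83. Itgam averaged 2.70 and Cd3e of T cells 2.74. Of the 17 mature lineage markers, 14 had a lower mean in Apcmin, as did 10374 of all 18193 genes. On WT replicate 2 all 17 lay above their own mean over the 6 arrays, as did 10483 of the 18193 genes. Their summed intensity ran from 7067 to 10296 in WT, the highest on replicate 2, and from 7871 to 8260 in Apcmin. The 7 stem and progenitor markers all had a higher mean in Apcmin, against 56.3% of genes averaging 6 or more. Summed erythroid markers (8 measured) ran from 6469 to 8778 in WT and from 6627 to 9565 in Apcmin. In that sum Car2 (mean 11.95 in log2) and Car1 (10.80) weigh most. The part of mature and erythroid cells in the results below was not tested.

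No kinetochore or checkpoint gene passed the test between genotypes, and those with a higher mean in Apcmin outnumbered the others. In 24 of the 34 the Apcmin mean was the higher one and in 10 the lower, and the median difference, Apcmin minus WT in log2 intensity, was 0.072. The range ran from -0.32 for Cenpe to 0.46 for Zwilch. Over all genes 43.0% were higher in Apcmin by sign, and the median difference was -0.036. Dim genes are part of that figure, and 33 of the 34 members were bright. Over the 8658 genes averaging 6 or more, 56.3% were higher and the median was 0.023.

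Values were compared with limma on log2 intensities, with p-values adjusted by Benjamini-Hochberg over 45037 probe sets, and 0 of 34 had an adjusted p under 0.05, the share over all probe sets being 0%. The smallest adjusted p among them was 0.954 and the smallest unadjusted p 0.0586, for Zwilch, so 0 had an unadjusted p under 0.05, against 3.11% of all genes and 1.34% of genes averaging 6 or more. For the probe sets that stood for the genes, each of the 34 unadjusted 95% confidence intervals excluded a 2-fold difference, and 25 excluded a 1.5-fold one. Some dimmer probe sets of the same genes did not exclude a 2-fold difference. Among them were Bub1 1438571_at, with an interval from 0.46 to 1.48, and Zw10 1445206_at, from -1.87 to 0.64. The median difference was 0.11 without WT replicate 3 and 0.027 without Apcmin replicate 2, and without any single array 20 to 27 members were higher.

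**Figure D1:**
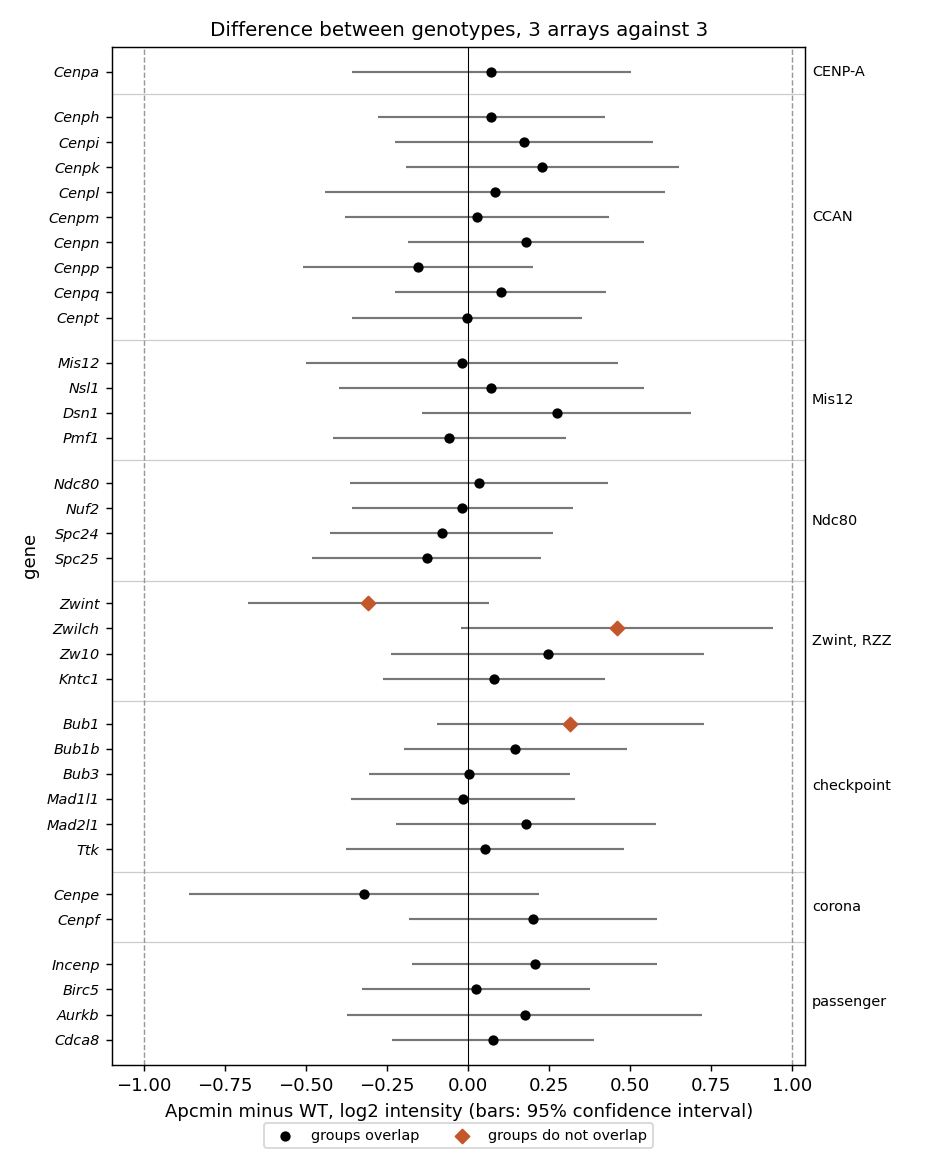
Difference between Apcmin and WT for each of the 34 genes (x axis, log2 intensity, 3 arrays against 3), grouped by role on the right (CCAN, constitutive centromere network), with 95% confidence intervals as bars and dashed lines at a 2-fold difference. All bars lie inside the dashed lines and all cross 0, and the 3 genes whose groups do not overlap (diamonds) are Zwilch and Bub1, higher in Apcmin, and Zwint, lower.

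In 3 of the 34 genes (8.82%) the 3 Apcmin arrays were all above or all below the 3 WT arrays, which happened in 7.73% of all genes, so the share was close to that background. Zwilch and Bub1 were the genes higher in Apcmin, and Zwint the one that was lower. Over all genes 2.97% did not overlap with Apcmin higher and 4.76% with Apcmin lower. Over genes averaging 6 or more the shares were 7.63% in all, 4.16% higher and 3.48% lower.

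The RZZ complex, made of Zw10, Zwilch and Kntc1 (the mouse Rod protein), carries Mad1, Mad2 and the motor dynein to kinetochores, and Zwint helps it to dock on Knl1. Zwilch was at 8.60, 8.06 and 8.56 on WT replicates 1, 2 and 3 and at 9.08, 8.78 and 8.73 on the Apcmin replicates. The groups did not overlap, WT replicate 2 being lowest and Apcmin replicate 1 highest, and no other member varied as much over the 6 arrays (SD 0.34). Its difference was 0.46 (standard error 0.20), a 1.38-fold level, at an adjusted p of 0.954 in limma, and leaving out single arrays moved it within 0.29 to 0.56. Zwilch has 1 probe set. Zw10 averaged 7.59 ± 0.24 (SD, n = 3) in WT and 7.84 ± 0.26 in Apcmin. Kntc1 averaged 8.09 ± 0.06 and 8.17 ± 0.14. Both overlapped between the groups.

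Zwint was the member whose own probe sets disagreed most. The brightest was at 9.30, 9.13 and 9.05 in WT and 9.03, 8.72 and 8.81 in Apcmin. Every Apcmin value lay below every WT value, by 0.31 in the mean (standard error 0.16), at an adjusted p of 0.954 in limma. Of the 6 other Zwint probe sets, 5 had the opposite sign, and in 3 of these the groups did not overlap either, with Apcmin higher. Probe set 1429787_x_at was at 7.22, 7.44 and 7.41 in WT and 7.68, 7.61 and 7.73 in Apcmin, a difference of 0.31. Probe set 1427539_a_at differed by 0.41 and the dim 1444717_at by 0.74. The mean of all 7 was 0.17 higher in Apcmin. These arrays therefore give no single direction for Zwint, and which part of the transcript each probe set reads was not examined.

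The checkpoint kinases and their partners mostly had higher means in Apcmin, 5 of 6 with a median difference of 0.098. Bub1, a kinase that marks centromeric histone H2A for shugoshin and helps to recruit Mad1, was at 8.02, 7.74 and 8.22 in WT and 8.45, 8.25 and 8.23 in Apcmin. The groups did not overlap, although the lowest Apcmin value lay just above WT replicate 3, and WT replicate 2 was again the lowest. The difference was 0.32 (standard error 0.17), at an adjusted p of 0.954 in limma, and leaving out single arrays moved it within 0.19 to 0.43. The second Bub1 probe set, 1438571_at, went the same way; it reads the same 6 RNA samples and is not independent of the first. It was at 4.55, 4.25 and 5.02 in WT and 5.61, 5.63 and 5.48 in Apcmin, with no overlap. Its difference of 0.97 had the smallest unadjusted p of the 72 probe sets of these genes (0.00301, adjusted p = 0.954 in limma), and its level is dim. Of the 72 probe sets 3 (4.17%) had an unadjusted p under 0.05, against 3.81% of all probe sets.

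Bub1b, the mouse BubR1 that holds Cdc20 in the checkpoint complex, averaged 9.10 ± 0.07 (SD, n = 3) among WT and 9.25 ± 0.14 among Apcmin arrays, and the further Bub1b probe sets, 2 in number, agreed in sign. Mad2l1, the Mad2 that captures Cdc20, averaged 9.05 ± 0.23 and 9.23 ± 0.11. Ttk, the mouse Mps1 kinase at the head of the signal, averaged 8.03 ± 0.27 and 8.08 ± 0.11. Bub3, which docks Bub1 and Bub1b on Knl1, averaged 10.03 ± 0.06 and 10.03 ± 0.05 and varied least of the 34. Mad1l1, the scaffold for Mad2, had the dimmest probe set of the list, at 5.89, 5.80 and 5.94 in WT and 5.93, 5.96 and 5.70 in Apcmin. It was the only member with a mean under 6, and its groups overlapped fully. Intensities of different probe sets do not rank the transcripts.

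Inner kinetochore genes showed small differences with overlapping groups throughout. Cenpa, the centromeric histone, averaged 8.95 ± 0.29 (SD, n = 3) in WT and 9.02 ± 0.07 in Apcmin, with the WT arrays spread from 8.67 to 9.24 around the Apcmin values. Of 9 genes of the constitutive network, 7 were higher by sign in Apcmin, the median difference being 0.082. Cenpk averaged 8.01 ± 0.22 in WT and 8.23 ± 0.17 in Apcmin, and its 2 further probe sets agreed in sign. Its partners in the CENP-HIKM group were Cenph at 8.76 ± 0.10 and 8.83 ± 0.13, Cenpi at 7.15 ± 0.10 and 7.32 ± 0.23, and Cenpm at 7.39 ± 0.23 and 7.41 ± 0.13.

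Cenpn, which with Cenpl reads CENP-A nucleosomes, averaged 7.66 ± 0.13 (SD, n = 3) in WT and 7.83 ± 0.14 in Apcmin. Cenpl averaged 7.14 ± 0.36 and 7.23 ± 0.20, its WT replicates 2 and 3 (6.78 and 7.50) enclosing all the others. Cenpq and Cenpp belong to the same inner complex and differed in sign. Cenpq averaged 9.11 ± 0.09 and 9.21 ± 0.07, and Cenpp 8.95 ± 0.09 and 8.79 ± 0.16. Cenpt, which ties the inner network to Ndc80, averaged 7.79 ± 0.11 and 7.79 ± 0.14.

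The outer kinetochore complexes that hold microtubules differed little between genotypes. The 4 Ndc80 complex genes had a median difference of -0.050, with Ndc80 higher and the other 3 lower in Apcmin. Ndc80 and Nuf2, whose heads bind the microtubule, averaged 7.21 ± 0.14 (SD, n = 3) and 8.72 ± 0.03 in WT, and 7.24 ± 0.20 and 8.70 ± 0.15 in Apcmin. Spc24 and Spc25, the anchor to the inner kinetochore, averaged 8.64 ± 0.15 and 8.72 ± 0.08 in WT, and 8.56 ± 0.06 and 8.59 ± 0.16 in Apcmin. On Apcmin replicate 3 all 4 lay below their own mean, and 3 were at their lowest. Of the 8658 genes averaging 6 or more, 4192 lay below their mean there and 1209 were lowest.

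In the Mis12 complex, the link between inner and outer parts, 2 genes were higher and 2 lower in Apcmin. Dsn1, which binds inner kinetochore proteins under control by Aurora B, averaged 6.49 ± 0.21 (SD, n = 3) in WT and 6.76 ± 0.17 in Apcmin, the largest difference of the complex (0.27). WT replicate 3 (6.73) lay above Apcmin replicate 3 (6.57), so the groups overlapped. Mis12 averaged 7.95 ± 0.33 and 7.93 ± 0.13, Nsl1 7.93 ± 0.09 and 8.0 ± 0.33, and Pmf1 8.55 ± 0.19 and 8.49 ± 0.002. The other Pmf1 probe set had the opposite sign and its groups did not overlap, with Apcmin higher by 0.15.

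The 2 corona proteins differed in sign. Cenpe, the kinesin that carries chromosomes toward the spindle equator, was at 8.57, 8.39 and 7.97 in WT and 7.93, 7.72 and 8.30 in Apcmin. Apcmin replicate 3 lay above WT replicate 3, and the groups overlapped. The difference was -0.32 (standard error 0.23), at an adjusted p of 0.954 in limma, the lowest of the 34, and the other Cenpe probe set differed by 0.17 in the opposite direction. Cenpf, a large coiled-coil protein of the corona, averaged 7.19 ± 0.15 (SD, n = 3) among WT and 7.39 ± 0.16 among Apcmin arrays, and its 2 other probe sets differed by -0.089 and 0.71.

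All 4 chromosomal passenger genes were higher by sign in Apcmin, by a median of 0.13. The sign depended on the probe set for Incenp and Cdca8, and on single arrays for Birc5 and Aurkb. Birc5, survivin, had the brightest probe set of the list, at 10.78, 10.46 and 10.67 in WT and 10.69, 10.70 and 10.59 in Apcmin. Its groups overlapped, with WT replicates 1 and 2 at the extremes. Aurkb, the Aurora B kinase that releases faulty attachments, averaged 8.68 ± 0.42 (SD, n = 3) in WT and 8.86 ± 0.12 in Apcmin, with WT replicates 1 and 3 (8.24 and 9.07) enclosing every other array. Cdca8, borealin, averaged 10.14 ± 0.03 and 10.22 ± 0.07. Incenp, the scaffold of the complex, averaged 10.29 ± 0.22 and 10.50 ± 0.004. Its brightest probe set is 1439436_x_at, and the 4 other Incenp probe sets all had lower means in Apcmin, with differences from -0.32 to -0.050. With probe sets ending in _s_at or _x_at set aside where a gene has another, a choice made after seeing the data, Incenp differed by -0.20 and Cdca8 by -0.013. The suffix _x_at marks probe sets with probes that can match other transcripts.

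**Figure D2:**
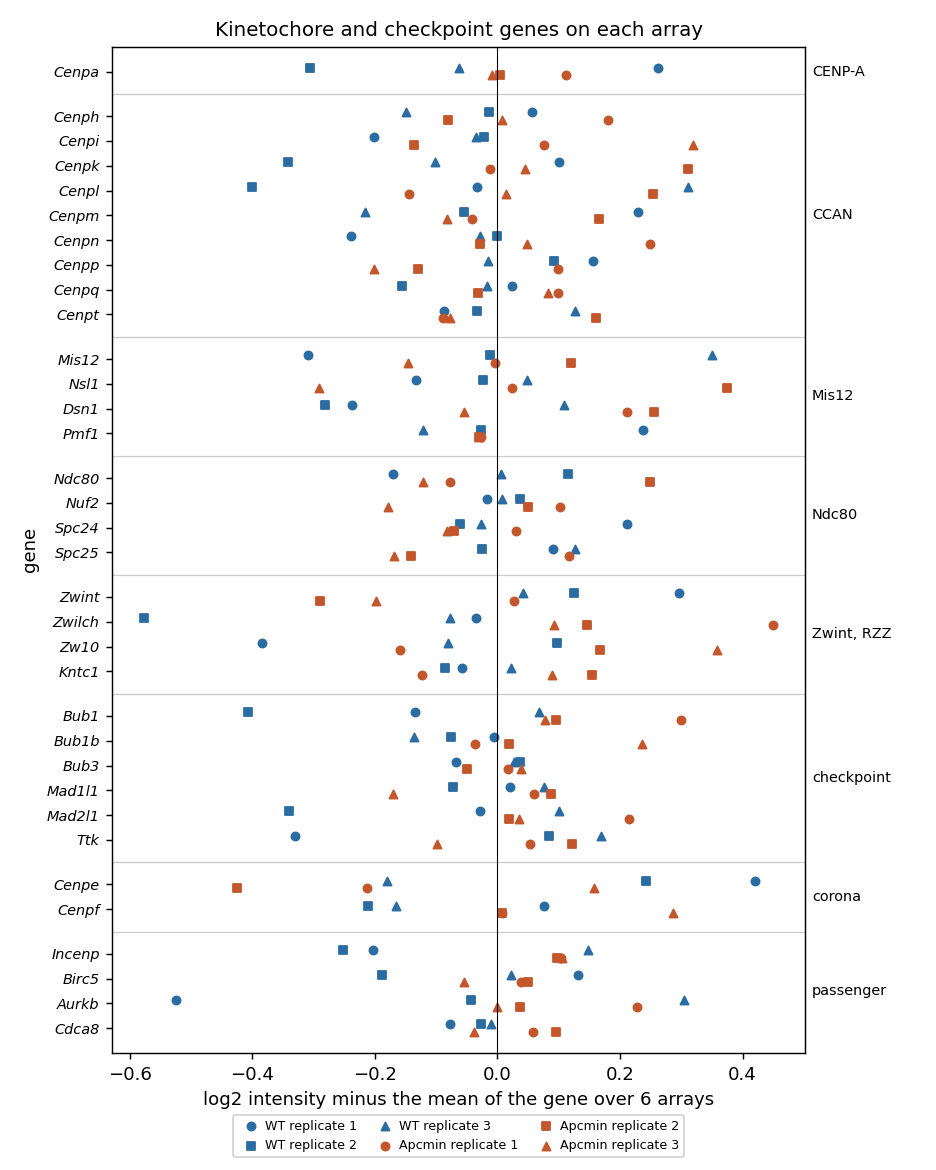
Value of each gene on each array (x axis, log2 intensity minus the mean of that gene over the 6 arrays), with WT in blue above and Apcmin in orange below each line, and replicates by symbol. Colours separate in Zwint, Zwilch and Bub1 alone; WT replicate 2 (blue squares) is never the highest point of a row and is the lowest in 11 rows.

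The median within-group SD of the 34 genes, a spread of single arrays, was 0.16. It was 0.24 over all genes and 0.18 over genes averaging 6 or more. The median absolute difference between the means of 3 arrays was 0.091 for the members. This too was smaller than over all genes (0.15) and over genes averaging 6 or more (0.11). The difference exceeded the within-group SD of the same gene in 15 of the 34 (44.1%), against 28.7% of all genes and 26.6% of genes averaging 6 or more. On WT replicate 2, 26 of the 34 genes lay below their own mean over the 6 arrays, 11 were at their lowest and 0 at their highest. Of the 8658 genes averaging 6 or more, 4648 lay below their mean there, 1881 were lowest and 1331 highest. Cenpa, Cenpk, Cenpl, Zwilch, Bub1 and Mad2l1 were among the members lowest on that array. WT replicate 1 was the lowest array for 9 members, Aurkb, Ttk, Mis12 and Zw10 among them, and the highest for 8, including Cenpa, Zwint and Cenpe. It was the lowest array for 2424 of those 8658 genes and the highest for 1623. On both Apcmin replicates 1 and 2, 23 of the 34 lay above their own mean, and on Apcmin replicate 3 only 16 did. Of the 8658 genes, 4925, 4417 and 4466 lay above their mean on Apcmin replicates 1, 2 and 3.

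The median deviation of the members was -0.031, -0.038 and 0.0068 on WT replicates 1, 2 and 3 and 0.046, 0.050 and -0.0045 on the Apcmin replicates. Over all genes with a mean of at least 6 it was -0.028, -0.016 and 0.029 in WT and 0.027, 0.0039 and 0.0055 in Apcmin. Apcmin replicate 3 therefore lay below WT replicate 3, and the array medians of the members overlapped between genotypes. WT replicate 2 was also the array on which all 17 mature lineage markers lay above their means. The median deviation of these markers was 0.38 there and 0.018 on WT replicate 1, where the members were also low. Whether mature cells bear on the member values was not tested. Without WT replicate 2 the members had a median difference of 0.055, with 21 of 34 higher. Without WT replicate 1 it was 0.079, with 22 higher.

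**Figure D3:**
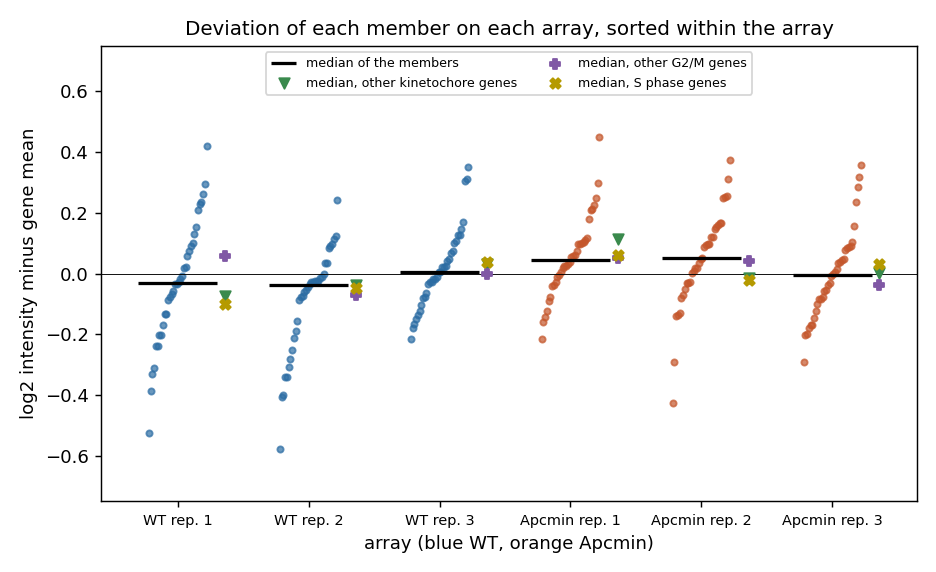
Deviation of each of the 34 genes from its own mean on each array (y axis, log2 intensity), sorted within the array, with the median as a black bar. Symbols on the right of each array give the medians of other kinetochore genes, other G2/M genes and S phase genes; the member medians span -0.038 to 0.050, and single genes reach well beyond them in both directions on each array.

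Probe sets that did not stand for a gene gave a further reading of the same RNA samples, not an independent one. The 34 genes had 72 probe sets, 15 genes having 1 and 19 having several. Of the 72, 47 (65.3%) had a higher mean in Apcmin, against 44.8% of all probe sets with 1 symbol. Of the 38 others, 23 were higher in Apcmin, and 19 (50%) had the sign of the probe set that stood for their gene, against 58.1% of the 16752 such probe sets of all genes. Among the 16 others with a mean of at least 6, 5 had the same sign (31.3%), against 59.8% over all genes. All probe sets agreed in sign for 7 of the 19 genes, including Bub1, Bub1b, Cenpk, Cenpn, Spc25 and Aurkb, and disagreed for Zwint, Incenp, Cenpe, Cenpf, Ttk and Pmf1 among others. Bub1 was the gene in which all probe sets also separated the genotypes.

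**Figure D4:**
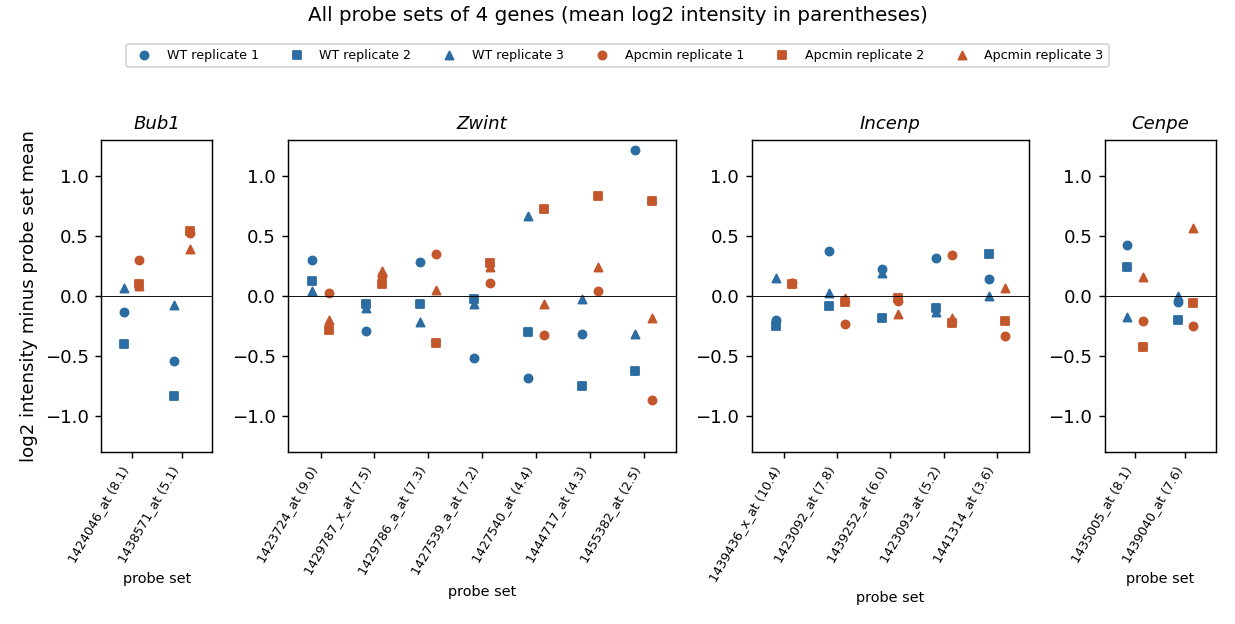
All probe sets of Bub1, Zwint, Incenp and Cenpe on each array (y axis, log2 intensity minus the probe set mean, which stands in parentheses on the x axis), with WT in blue and Apcmin in orange. Both Bub1 probe sets separate with Apcmin higher, the brightest Zwint probe set separates with Apcmin lower while 3 others separate the opposite way, and the brightest probe sets of Incenp and Cenpe go against their others.

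Other genes of the kinetochore and its regulation, outside the 34, gave a similar count. Of 29 listed, 26 were measured, the Apcmin mean was the higher one in 16 and the lower in 10, the median difference was 0.063, and 0 passed (limma, adjusted p = 0.954 at the lowest). In 3 of the 26 (11.5%) the groups did not overlap, against 7.73% of all genes. Trip13, an ATPase that remodels Mad2, was at 7.55, 8.15 and 8.05 in WT and 8.39, 8.18 and 8.26 in Apcmin. Spdl1, the Spindly adaptor that ties RZZ to dynein, was at 6.03, 5.93 and 6.08 in WT and 6.36, 6.25 and 6.23 in Apcmin. Both were higher on each Apcmin array than on any WT array, with the margin in Trip13 a small one. Mad2l1bp, p31comet, which works with Trip13 to silence the checkpoint, was at 7.12, 6.99 and 6.92 in WT and 6.72, 6.75 and 6.74 in Apcmin, lower on each Apcmin array. The largest difference of these 26 genes was that of Cenpc1, the CENP-C that binds CENP-A nucleosomes, with 7.35 ± 0.43 (SD, n = 3) among WT and 7.78 ± 0.13 among Apcmin arrays, where the groups overlapped.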

How the data were processed

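Arrays from 3 WT and 3 Apcmin mice were compared. The intensity values deposited by the authors were already normalized, linear and between 1.31 and 11375. Per the submitters' processing notes RMA was used; no source used here gives its version or settings. Log2 was taken with no pseudocount. The table holds 45101 probe sets, of which 64 controls were dropped, leaving 45037 for limma 3.58.1 in R 4.3.3 (lmFit, eBayes, genotype as the only term), adjusted by Benjamini-Hochberg at 0.05; the step was tested on simulated data. Of these, 34945 had 1 gene symbol, 932 several and 9160 none; 34741 matched a RefSeq table (GRCm38.p6) by Entrez identifier. The files give no detection call, and precision is set by the small number of arrays. The members and lists were chosen with earlier results of these data known, so no list was tested. Values on each array are given for members whose groups did not overlap, the 2 largest differences in each direction, the brightest, the dimmest and the most variable member. Same-numbered arrays of both genotypes deviated from their group means with correlations of 0.05, -0.05 and -0.25, so replicate numbers were not treated as pairs. Alternatives covered the choice of probe set, low values, normalization, the model and each array left out.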

Additional observations from a re-analysis of the deposited data

How the results depend on the processing

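No member passed the adjusted threshold under any of the 9 alternatives or with any array left out. Nor did any other probe set or gene tested there (limma). The count of members higher in Apcmin stayed between 20 and 27, and the median difference went from 0.027 (without Apcmin replicate 2) to 0.11 (without WT replicate 3). With the replicate block the median difference was 0.072 with 24 higher, as without it, and the block changed no call. The number of members whose groups did not overlap was 5 with probe sets averaged per gene and 5 with the second brightest, against 7.73% and 7.90% of all genes, and 3 to 9 with 1 array left out. Leaving out WT replicates 1, 2 and 3 gave 7, 3 and 8 of the 34, against 13.8%, 15.1% and 32.8% of all genes. Leaving out Apcmin replicates 1, 2 and 3 gave 9, 6 and 7, against 14.3%, 17.2% and 16.9%. Fewer arrays overlap less easily.

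Signs turned both with the choice of probe set and with single arrays. With probe sets averaged per gene Nsl1 differed by -0.040, Pmf1 by 0.048, Zwint by 0.17, Ttk by -0.043 and Incenp by -0.10. With the second brightest the differences were -0.14 for Cenpa, -0.15 for Nsl1, 0.15 for Pmf1, 0.31 for Zwint, -0.61 for Zw10, -0.0077 for Bub3, -0.14 for Ttk, 0.17 for Cenpe, -0.089 for Cenpf and -0.20 for Incenp. Without _s_at or _x_at probe sets, a choice made after seeing the data, they were -0.0077 for Bub3, -0.20 for Incenp and -0.013 for Cdca8. Quantile normalization gave -0.014 for Bub3, and array weights gave 0.0055 for Cenpt, -0.012 for Ndc80 and -0.0037 for Bub3. The cause was not tested. Of the 34, 18 kept their sign with each array left out. The other 16 ranged across 0: Aurkb from -0.044 to 0.37, Birc5 from -0.065 to 0.095, Bub3 from -0.029 to 0.030, Cenpa from -0.064 to 0.22, Cenph from -0.0015 to 0.13, Cenpl from -0.098 to 0.26, Cenpm from -0.074 to 0.15, Cenpt from -0.085 to 0.059, Mad1l1 from -0.063 to 0.066, Mis12 from -0.18 to 0.15, Ndc80 from -0.083 to 0.10, Nsl1 from -0.097 to 0.24, Nuf2 from -0.073 to 0.067, Pmf1 from -0.13 to 0.046, Spc24 from -0.13 to 0.0030 and Ttk from -0.10 to 0.15. The number of arrays limits the precision, and without detection calls background cannot be separated from signal in dim probe sets.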

Other observations

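Among 14 measured genes of G2 and M phase outside the kinetochore, 10 were higher in Apcmin by sign, the median difference being 0.051. Mki67, the usual mark of cycling cells, averaged 10.46 ± 0.05 (SD, n = 3) among WT and 10.51 ± 0.05 among Apcmin arrays, and Top2a 10.57 ± 0.07 and 10.65 ± 0.06. Foxm1, a transcription factor that drives many G2 and M phase genes, was the only one of the 14 (7.14%) whose groups did not overlap. The share over all genes was 7.73%. Foxm1 was lower in Apcmin. It was at 6.49, 6.42 and 6.16 in WT and 6.05, 5.96 and 6.02 in Apcmin, a difference of -0.35 (limma, adjusted p = 0.954). Nusap1, a spindle protein, had the largest difference upward, 0.24.

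Among 17 measured S phase genes, 11 were higher and the median difference was 0.045. The groups did not overlap in 2 of the 17 (11.8%), against 7.73% of all genes, and these 2 went in opposite directions. Mcm3, of the replicative helicase, averaged 10.40 ± 0.02 in WT and 10.51 ± 0.08 in Apcmin. Rfc3, of the clamp loader, averaged 7.65 ± 0.04 and 7.52 ± 0.01. The largest differences were those of Mcm5 (0.30) and Tyms (-0.25), and 0 genes of either list passed the adjusted threshold or had an unadjusted p under 0.05 (limma).

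The 13 members with TTTGAA in a promoter had a median difference of 0.077, with 11 higher in Apcmin, and the 16 without had one of 0.026, with 9 higher. For TTTAAA the order was the opposite, 0.024 in the 7 with it (4 higher) and 0.079 in the 22 without (16 higher). For either word it was 0.051 in 17 (12 higher) and 0.086 in 12 (8 higher). The 20 with CCAAT had one of 0.074 (15 higher), and the 9 without had one of 0.024 (5 higher). These contrasts were not tested, and no member passed the adjusted threshold.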
